A study of Mus musculus with 50 samples.

Results

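The 9 genes described here encode enzymes of the tricarboxylic acid (TCA) cycle: Cs, Idh3a, Idh3b, Ogdh, Suclg1, Sdha, Sdhb, Fh1 and Mdh2. They were chosen by gene symbol, as the rows of the deposited expression table that carry one of these names, and each name matched 1 of the 37701 genes of the table. All 9 were among the 16733 genes with a mean level high enough to be tested, so none was lost to the filter on low values. The samples were 50 mammary gland (MG) tumors of female p53R270H/+WAPCre mice, 10 tumors per treatment group, with 1 column of the table for each tumor. Injections under the skin began at an age of 8 weeks and were given every second day, until a tumor developed, with vehicle, insulin, the long-acting insulin analogue glargine, the insulin analogue X10 or insulin-like growth factor 1 (IGF1). X10 and IGF1 bind the IGF1 receptor (IGF1R) with high affinity. Each tumor was removed once it measured 1 cm3, and the last dose had been given 24 h earlier. Every mouse, the vehicle group included, carried 1 mutant p53 allele that is activated by Cre recombinase under the Wap promoter, which is active in mammary epithelium. The sequenced tumors were those with an epithelial to mesenchymal transition (EMT)-like phenotype and a latency near the median of their group, so they do not represent all tumors of the experiment. Tumors labelled untreated were taken as the vehicle group. Each tumor is named below by its label, in which untreated stands for vehicle and the number tells the tumors apart.

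The TCA cycle is the series of reactions in the mitochondrial matrix in which acetyl-CoA, made from pyruvate, fatty acids or amino acids, is oxidized to carbon dioxide. The electrons are passed to the respiratory chain through NADH and succinate dehydrogenase, and intermediates such as citrate and oxaloacetate are withdrawn for the synthesis of lipids and amino acids. Tumor cells that convert most of their glucose to lactate, known as the Warburg effect, can use less of their pyruvate in the cycle. The question for these genes was whether the enzymes of the cycle differed between tumors of mice that had received compounds with a high affinity for the IGF1R and the other tumors.

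Poly-A RNA had been sequenced on the Ion Proton, and the deposited values were RPKM (reads per kilobase of gene, scaled to the library). Library sizes, recovered from the steps between the values within a gene, ranged from 26.6 to 51.9 M reads (median 40.9 M). The lowest number of reads for an enzyme in a tumor was 1147, for Suclg1, so counting error was small beside the spread between tumors. The tumors differed in the tissue they contained. The summed RPKM of 8 skeletal muscle markers ranged from 3.39 to 3772 in the vehicle, 5.55 to 2403 in the insulin, 5.12 to 6210 in the glargine, 5.73 to 2924 in the X10 and 3.61 to 2051 in the IGF1 group, with the highest value in glargine_64. That of 6 mammary epithelial markers ranged from 9.58 in the IGF1 group to 5098 in the vehicle group. Of these 6, Krt8 (median 173.9 RPKM), Epcam (4.75) and Cdh1 (6.56) were measured above 0 in every tumor and the basal keratin Krt5 was at 0 in 2 tumors. A lower level of a gene can reflect fewer cells of a type or less RNA per cell, and in tumor RNA these cannot be told apart.

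The deposited values gave Sdha, the flavoprotein subunit of succinate dehydrogenase, as the most highly expressed of the 9 enzymes, with a median of 390.1 RPKM over the 50 tumors. This rank depended on the gene length by which the reads had been divided. The length recovered for Sdha was 429 bases, whereas its longest protein-coding transcript in GENCODE M21 (GRCm38) has 2900 bases. The length used for Fh1, fumarate hydratase, was 599 bases against 2636, and that for Suclg1, the alpha subunit of succinyl-CoA ligase, was 670 bases against 1519. For Sdhb both lengths were 1142 bases, and for Cs they were 2828 and 2926 bases. In 5 of the 9 genes, and in 52.7% of the 16249 genes whose length could be resolved, the length used was the median length of all annotated transcripts of the gene, short non-coding transcripts included. Lengths were recovered in steps of 0.5 bases and counted here only when exactly equal to that median. The longest coding transcript was on median 1.43 times as long as the length used, over 13226 protein-coding genes. A constant length cancels out of any comparison of 1 gene between tumors, but not out of a comparison between genes.

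After division by the longest coding transcript instead, Mdh2, mitochondrial malate dehydrogenase, had the highest level, with a median rescaled RPKM of 131.3. It was followed by the iron-sulfur subunit Sdhb at 106.2, Idh3b at 61.8, Sdha at 57.7 and Cs at 56.9, on the same scale. Ogdh at 47.5, Suclg1 at 36.4, Idh3a at 28.5 and Fh1 at 20.2 had the lowest levels. Sdhb exceeded Idh3b in 50 of 50 tumors, Mdh2 exceeded Sdhb in 47 of 50 and Idh3a exceeded Fh1 in 47 of 50. The middle of the order was less clear: Idh3b was above Sdha in 32 of 50 tumors, and Sdha was above Cs in 28 of 50. On this scale the ratio of Sdha to Sdhb, whose proteins form the catalytic part of the complex, had a median of 0.553, against 3.74 on the deposited scale. The ratio ranged 0.293 to 0.915 per kb of coding transcript, lowest in IGF1_160 and highest in insulin_15. These levels are a description of the genes and were not tested.

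**Figure D1:**
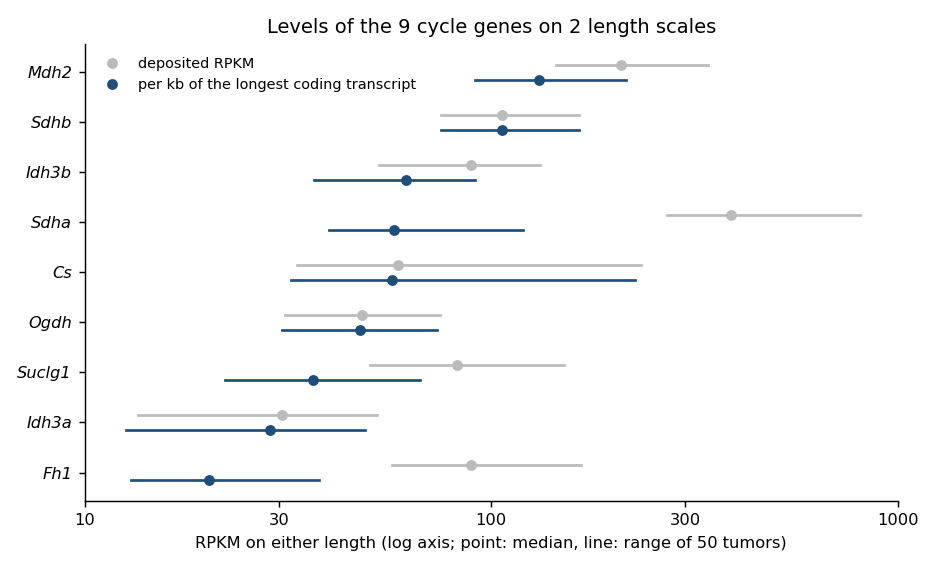
Levels of the 9 TCA cycle genes over 50 tumors on a log axis in RPKM, as deposited (grey) and per kb of the longest coding transcript (blue). Points are medians and lines run from the lowest to the highest tumor. Sdha moves from a median of 390.1 to 57.7 and Fh1 from 89.0 to 20.2, while Sdhb stays at 106.2.

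The enzymes varied moderately between tumors. The SD of log2(RPKM + 0.5) over 50 tumors lay between 0.24 for Ogdh and 0.38 for Suclg1 and Cs, below the median SD of 0.42 of the tested genes in all 9 cases. The SD within treatment groups was close to that over all tumors, for example 0.37 against 0.38 for Suclg1 and 0.32 against 0.32 for Sdha. RPKM values per tumor follow in the order of the cycle.

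Cs, citrate synthase, joins acetyl-CoA to oxaloacetate at the entry of the cycle. Its RPKM was 49.2 to 82.3 in the vehicle group (median 57.0), 45.2 to 67.5 in the insulin group (median 57.9) and 39.0 to 78.7 in the glargine group (median 62.4). It was 45.7 to 233.9 in the X10 group (median 58.2) and 33.4 to 73.6 in the IGF1 group (median 60.2). The groups overlapped, and 1 tumor, X10_95, stood far above the other 49, of which the highest was Untreated_197 at 82.3.

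Idh3a and Idh3b encode the catalytic alpha and the beta subunit of the NAD-dependent isocitrate dehydrogenase, which makes 2-oxoglutarate. Idh3a was 17.3 to 52.5 RPKM in the vehicle group (median 30.9), 23.0 to 34.9 in the insulin group (median 28.9), 24.8 to 46.2 in the glargine group (median 35.0), 23.4 to 46.4 in the X10 group (median 30.4) and 13.5 to 44.5 in the IGF1 group (median 29.9). Idh3b was 52.95 to 119.9 RPKM in the vehicle group (median 87.8), 71.4 to 96.6 in the insulin group (median 87.1), 73.1 to 131.9 in the glargine group (median 92.1), 70.9 to 100.1 in the X10 group (median 91.9) and 66.9 to 128.7 in the IGF1 group (median 92.4). Both overlapped between all groups. The subunits did not keep a fixed proportion: the deposited ratio of Idh3a to Idh3b was 0.145 in IGF1_160 and 0.543 in Untreated_162.

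Ogdh, the dehydrogenase component of the 2-oxoglutarate dehydrogenase complex, was 31.0 to 53.4 RPKM in the vehicle group (median 45.6) and 35.8 to 65.3 in the insulin group (median 49.3). It was 40.0 to 74.7 in the glargine group (median 48.0), 38.1 to 51.8 in the X10 group (median 48.9) and 38.9 to 62.7 in the IGF1 group (median 50.8). The highest value was that of glargine_64, the tumor with the highest summed muscle markers; their part in this value was not tested. Suclg1, in the step that yields a nucleoside triphosphate, was 69.1 to 151.3 RPKM in the vehicle group (median 93.2) and 62.8 to 98.0 in the insulin group (median 74.6). It was 53.9 to 145.4 in the glargine group (median 97.2), 68.1 to 108.0 in the X10 group (median 79.9) and 50.2 to 150.5 in the IGF1 group (median 77.3). No insulin tumor reached the vehicle mean of 103.8, although the groups overlapped.

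Sdha was 277.1 to 678.4 RPKM in the vehicle group (median 402.8), 323.2 to 487.4 in the insulin group (median 373.5), 303.9 to 807.2 in the glargine group (median 434.5), 275.7 to 460.8 in the X10 group (median 399.9) and 270.1 to 557.3 in the IGF1 group (median 358.0). Sdhb was 75.4 to 162.6 RPKM in the vehicle group (median 106.9), 78.8 to 121.1 in the insulin group (median 104.3), 96.2 to 164.9 in the glargine group (median 119.1), 76.0 to 140.3 in the X10 group (median 97.6) and 81.3 to 161.96 in the IGF1 group (median 108.3). glargine_73 held the highest value of both subunits among the 50 tumors. Succinate dehydrogenase is shared by the cycle and the respiratory chain, where it is complex II.

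Fh1, which hydrates fumarate to malate, was 61.0 to 166.1 RPKM in the vehicle group (median 92.2), 68.0 to 121.6 in the insulin group (median 85.2), 73.2 to 134.2 in the glargine group (median 98.6), 72.1 to 120.5 in the X10 group (median 92.2) and 57.1 to 121.8 in the IGF1 group (median 77.4). Mdh2, which closes the cycle by regenerating oxaloacetate, was 169.7 to 340.6 RPKM in the vehicle group (median 245.9), 159.99 to 250.5 in the insulin group (median 191.0), 144.7 to 329.9 in the glargine group (median 211.0), 172.0 to 302.7 in the X10 group (median 203.2) and 156.5 to 300.6 in the IGF1 group (median 236.2). Untreated_197 was the highest of all tumors for both genes, and all groups overlapped.

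**Figure D2:**
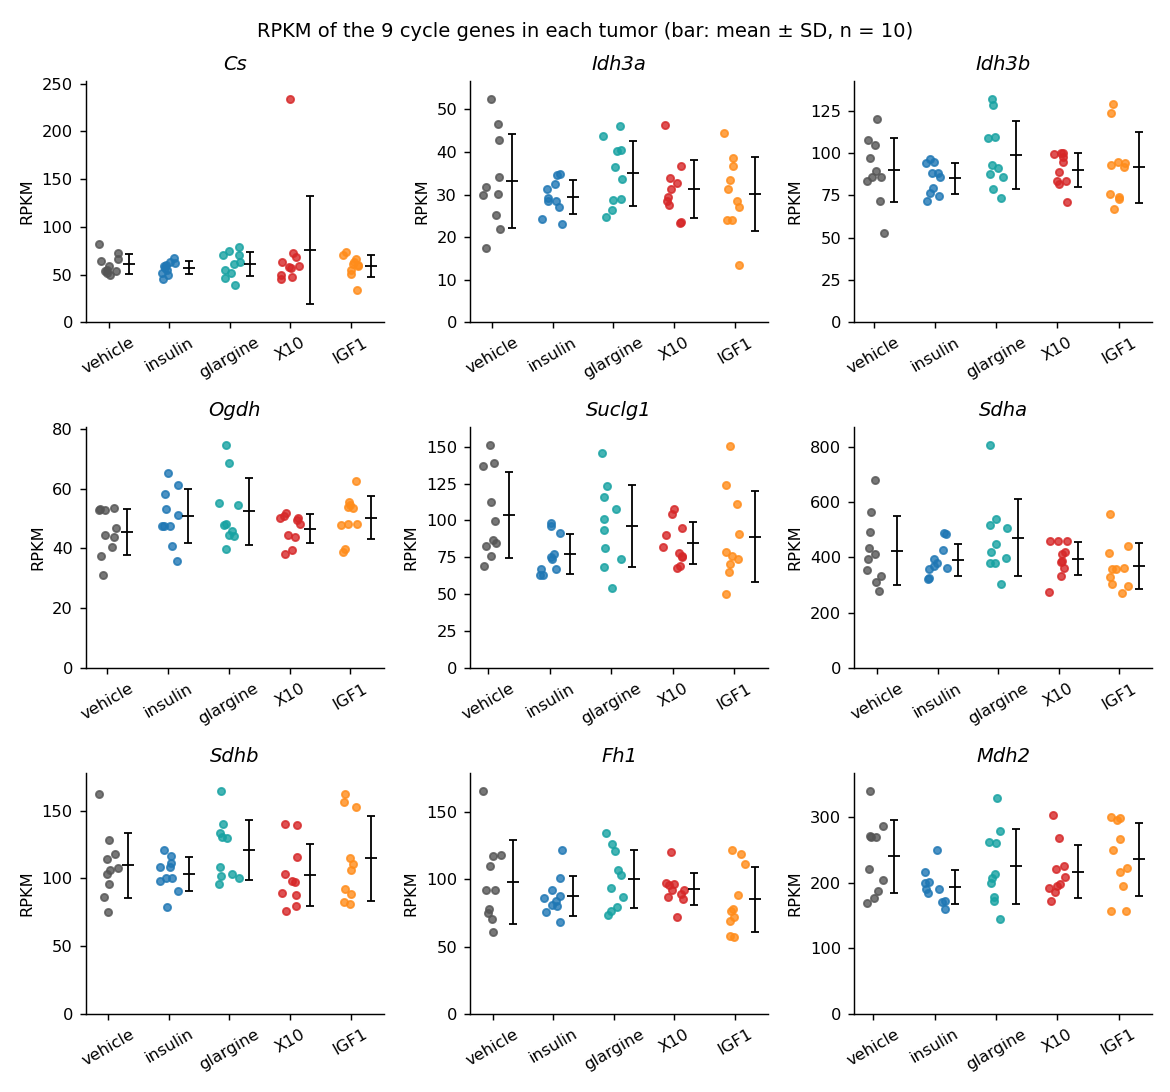
RPKM of each of the 9 genes (one panel each, linear axis from 0) in the 50 tumors by treatment group; each point is 1 tumor and the bar beside it is the mean ± SD of 10 tumors. The groups overlap in every panel, and Cs in X10_95 lies at 233.9 RPKM, above all other tumors.

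None of the 9 enzymes was called different between the 20 X10 and IGF1 tumors and the 30 vehicle, insulin and glargine tumors. With limma on log2(RPKM + 0.5) and Benjamini-Hochberg adjustment over 16733 genes, 0 of 9 had an adjusted p-value under 0.05, where 0.155% of all tested genes (26 genes) did. At an unadjusted p under 0.05 the count was again 0 of 9, against 10.5% of the tested genes, and limma voom on the recovered reads also called 0. The largest difference was that of Sdha, with a log2 fold change of -0.15 (SE 0.09, adjusted p = 0.615). The log2 fold changes were below 0 for 7 of the 9 genes, where 56.4% of all tested genes were below 0, and their median was -0.05 against -0.02 over all tested genes. The 95% confidence intervals of the 9 genes together ran from -0.33 for Sdha to 0.29 for Cs on the log2 scale. Cs changed sign, from a log2 fold change of 0.07 to -0.03, when X10_95 was left out. Idh3b, at -0.0020, also changed sign with quantile normalization, upper quartile scaling, library size as a covariate or without glargine_73.

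Comparisons of each treatment with vehicle share the same 10 vehicle tumors. Insulin against vehicle gave 0 of 9 enzymes with an adjusted p under 0.05 by limma and by limma voom, as it did for 0% of all genes. At an unadjusted p under 0.05 there were 2 of 9, against 11.1% of tested genes. With quantile normalization, upper quartile scaling or library size as a covariate it was 1 of 9, as Mdh2 did not pass. The share over all genes was not taken in these settings. Suclg1 had a log2 fold change of -0.39 (SE 0.16, p = 0.0200, adjusted p = 0.369) and Mdh2 one of -0.28 (SE 0.14, p = 0.0447, adjusted p = 0.436). In RPKM, Suclg1 was 77.3 ± 13.4 in the insulin group and 103.8 ± 29.3 in the vehicle group (SD, n = 10 each), and Mdh2 was 193.7 ± 26.1 and 240.0 ± 56.1. The difference of neither gene passed the adjusted threshold.

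No enzyme was called for the other treatments. Of the 9 genes, 0 had an adjusted p under 0.05 by limma or limma voom for glargine against vehicle (0% of tested genes called), for X10 against vehicle (0.0657%) and for IGF1 against vehicle (0.00598%). The count at an unadjusted p under 0.05 was likewise 0 in each, where 6.23%, 11% and 8.84% of tested genes passed. With library size as a covariate it was 1 for glargine, a setting for which the share over all genes was not taken. Glargine tumors differed most from vehicle tumors in Ogdh (log2 fold change 0.19, SE 0.11, adjusted p = 0.811). X10 tumors differed most in Suclg1 (-0.26, SE 0.16, adjusted p = 0.566), as did IGF1 tumors (-0.24, SE 0.16, adjusted p = 0.739). Suclg1 was therefore below vehicle in all 4 treatments in log2 fold change, as was Mdh2, while Ogdh was above vehicle in all 4. Every one of these contrasts uses the same vehicle tumors, and none passed the adjusted test.

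Compared with insulin, the 9 enzymes again gave 0 calls by limma and limma voom for glargine (0% of tested genes called), X10 (0.102%) and IGF1 (0.00598%). At an unadjusted p under 0.05 the counts were 0 of 9 each, with 3.96%, 11.3% and 7.3% over all genes. The count was 1 for glargine when only the compared groups were fitted, a fit for which the share over all genes was not taken. All 9 log2 fold changes of glargine against insulin were above 0, with a median of 0.20, where 48.3% of all tested genes were above 0. Against vehicle, 6 of 9 were above 0 for glargine (54.1% of all tested genes) and 1 of 9 for insulin (54.5%). In glargine against insulin, Suclg1 had the largest log2 fold change (0.28, SE 0.16, adjusted p = 0.990) and Ogdh the smallest (0.04, SE 0.11). The summed RPKM of 6 adipocyte markers was 21.8 to 623.6 in the glargine group (median 205.3) and 31.0 to 184.1 in the insulin group (median 43.8), and their part in this result was not tested. In the vehicle, X10 and IGF1 groups that sum had medians of 62.3, 76.4 and 60.4. In IGF1 against insulin, Mdh2 had the largest (0.26, SE 0.14, p = 0.0695, adjusted p = 0.687). A moderated F test over the 5 groups also called 0 of 9 by limma (0.102% of tested genes) and 0 at an unadjusted p under 0.05 (13.1%), with Suclg1 closest at p = 0.167.

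**Figure D3:**
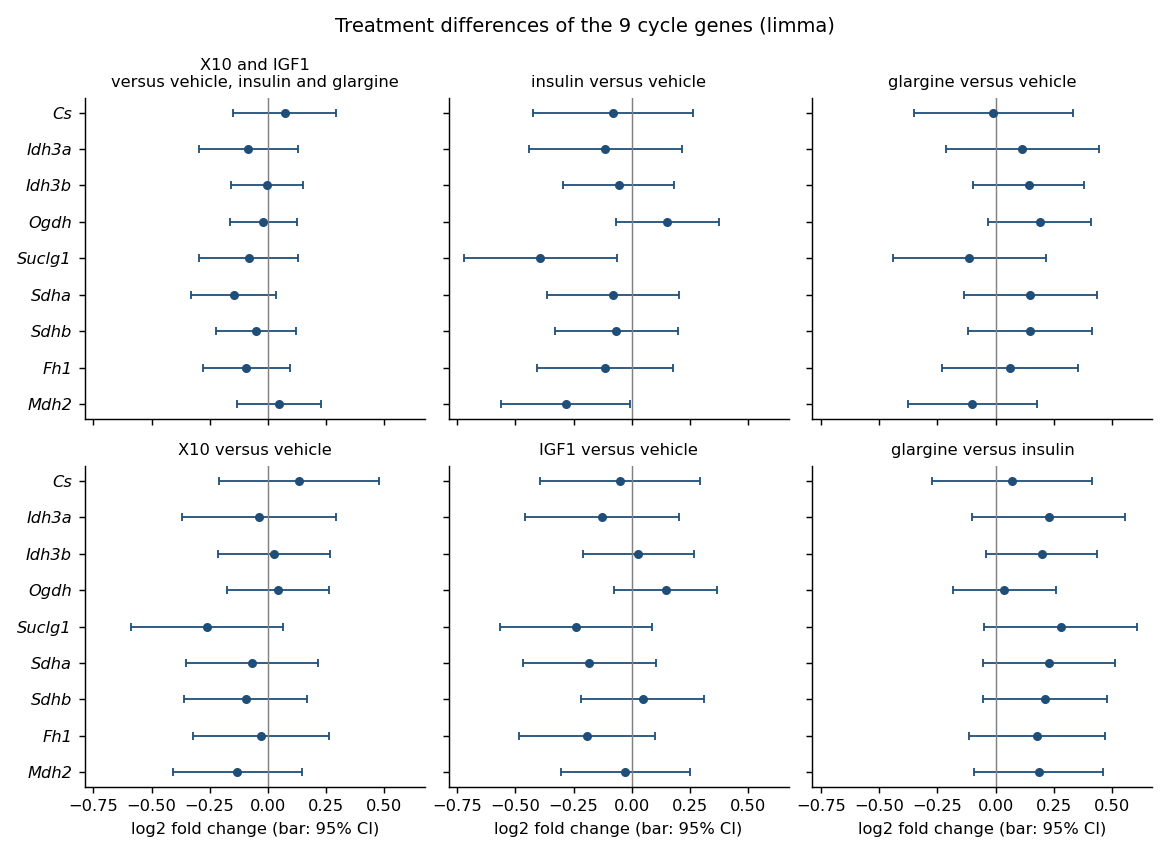
Log2 fold changes (points) with 95% confidence intervals (bars) of the 9 genes in 6 comparisons, from limma on log2(RPKM + 0.5). Only the intervals of Suclg1 (-0.72 to -0.06) and Mdh2 (-0.56 to -0.01) in insulin against vehicle leave out 0, at adjusted p-values of 0.369 and 0.436.

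The wider pathway gave a similar count. Of 41 genes of the remaining cycle subunits, the assembly of succinate dehydrogenase, pyruvate entry, side reactions and cytosolic counterparts, 39 were in the table and tested, and 0 had an adjusted p under 0.05 by limma or limma voom in any of the 8 comparisons, with 1 to 5 at an unadjusted p under 0.05, where the share over all tested genes was 3.96% to 11.3%. When the X10 and IGF1 tumors were set against the rest, 3 of 39 had an unadjusted p under 0.05, against 10.5% of all tested genes. Sdhc, a membrane anchor of succinate dehydrogenase, had a log2 fold change of -0.21 (SE 0.07, p = 0.00643, adjusted p = 0.229). The values were 0.38 for Pdk1 (SE 0.17, adjusted p = 0.398) and 0.20 for Pdk3 (SE 0.09, adjusted p = 0.399), kinases that inactivate pyruvate dehydrogenase and so limit the entry of pyruvate. The next lowest p among the genes below 0 was that of pyruvate carboxylase, Pcx, at -0.30 (SE 0.17, adjusted p = 0.542). The median of the 39 genes was -0.02, as over all tested genes. Of 14 genes of glycolysis, 13 had a log2 fold change above 0 in the same comparison, with a median of 0.17, where 56.4% of all tested genes were below 0. By limma 0 of the 14 passed the adjusted threshold and 4 had an unadjusted p under 0.05, against 10.5% of all tested genes. The count above 0 depended on the group used for comparison. Against vehicle, it was 8 of 14 for X10 (median 0.04, 44.4% of all tested genes above 0) and 11 of 14 for IGF1 (median 0.16, 53.4% of all), but 2 of 14 for insulin (median -0.18, 54.5% of all) and 4 of 14 for glargine (median -0.08, 54.1% of all). Against insulin, it was 13 of 14 for X10 (median 0.31, 38.6% of all) and for IGF1 (median 0.37, 47.4% of all) and 10 of 14 for glargine (median 0.08, 48.3% of all). At an unadjusted p under 0.05 there were 6 of 14 for IGF1 against insulin (7.3% of all), 2 for X10 against insulin (11.3%), 1 each for insulin (11.1%) and IGF1 (8.84%) against vehicle and 0 in the others, and by limma 0 passed the adjusted threshold in any of them. In X10 and IGF1 against the rest, Ldha, which converts pyruvate to lactate, had a log2 fold change of 0.31 (SE 0.12, adjusted p = 0.326) and Pgk1, phosphoglycerate kinase, one of 0.40 (SE 0.14, adjusted p = 0.226).

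The Cs value of X10_95 decided the spread of its group. Cs was 75.4 ± 56.3 RPKM in the X10 group (SD, n = 10) and 57.8 ± 9.10 without this tumor (n = 9). Without X10_95, the log2 fold change of Cs against vehicle went from 0.13 to -0.07. In this tumor Mdh2, at 302.7 RPKM, ranked 3 of 50 from the highest, Sdhb and Fh1 ranked 7, Sdha ranked 11 and Idh3b ranked 12. Idh3a, at 32.7 RPKM, ranked 20, Suclg1 ranked 22 and Ogdh ranked 40. X10_95 also held the highest Sdha, Sdhb, Fh1 and Mdh2 of the X10 group. Cs, whose gene lies on chromosome 10 (chr10:128337734-128362479, GRCm38), was high in X10_95 together with its neighbours. This was examined after the Cs value had been seen.

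Of 81 tested genes that start within 2 Mb of Cs, 54 (66.7%) had their highest value of all 50 tumors in X10_95, against 2.78% of the 16651 other tested genes. Their RPKM in this tumor was on median 3.29 times the median of the other 49. Within this window the genes highest in X10_95 ran from Xrcc6bp1, 1.47 Mb before the start of Cs, to Itga7, 0.60 Mb beyond it. Of 6 tested genes farther than 0.6 Mb beyond Cs, 0 were highest in X10_95. Among them Mettl7b, at 0.62 Mb, had 5.87 RPKM in X10_95 against a median of 1.04 in the other 49, of which the highest reached 14.3. On the other side genes highest in X10_95 were also found outside the window. Of 84 tested genes from 30 to 2 Mb before Cs, 39 were highest in X10_95, with a median deviation of 0.76 from the median tumor on the log2 scale, against 1.66 within the window. Farther than 40 Mb before Cs, 12 of 510 tested genes were highest in X10_95, with a median deviation of 0.11. Close to Cs lay Atp5b, the beta subunit of mitochondrial ATP synthase, with 3974 RPKM against a median of 923.1 in the other tumors. Shmt2, mitochondrial serine hydroxymethyltransferase, had 128.1 RPKM against 25.6, and Cdk4, a kinase that drives entry into the cell cycle, had 1224 against 214.2. Genes without this rise were interspersed, for example Lrp1 with 1626 RPKM against 1206.

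**Figure D4:**
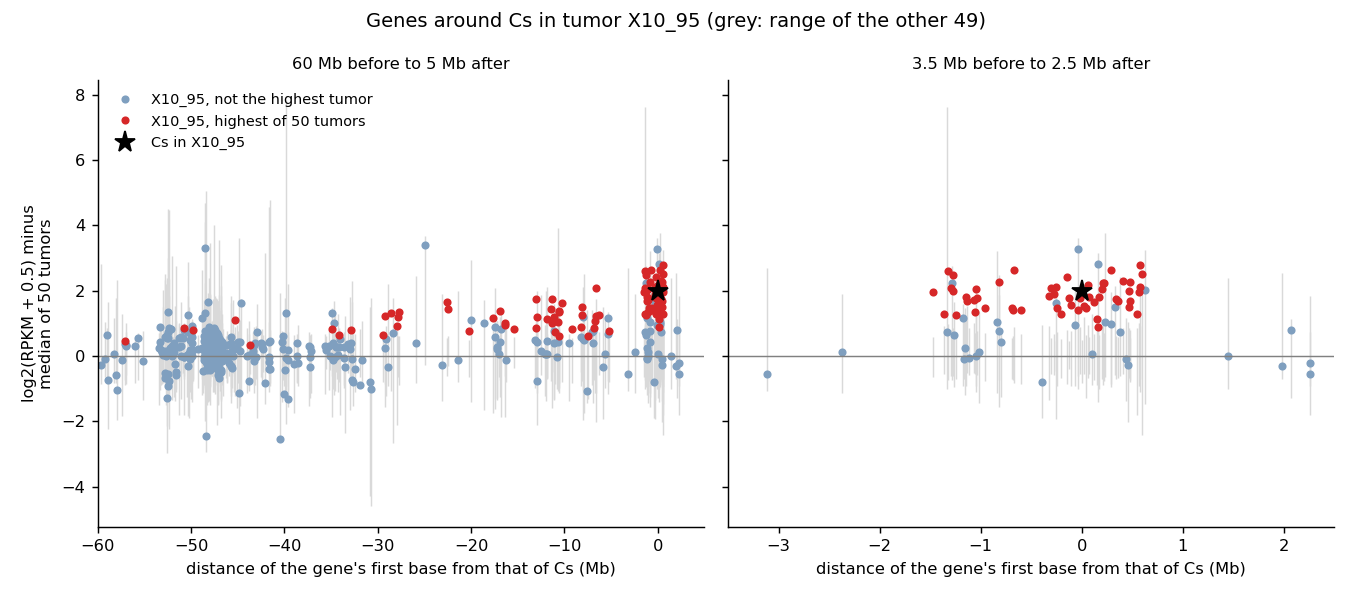
Tested genes of chromosome 10 by distance of their first base from that of Cs (Mb) and by log2(RPKM + 0.5) in X10_95 minus the median of 50 tumors; grey lines span the other 49 tumors and red points are genes highest in X10_95. The left panel spans 60 Mb before to 5 Mb after Cs and the right one its surroundings. Red points are densest from 1.47 Mb before Cs to 0.60 Mb beyond it, and 39 more lie from 30 to 2 Mb before it.

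No comparison of treatments called an enzyme, but the enzymes varied together from tumor to tumor. All 36 pairs had a Pearson r above 0 over the 50 tumors, with a median of 0.34 and a range of 0.07 to 0.66. Over all pairs of the 16733 tested genes, 53.3% were above 0 and the median r was 0.02. By a permutation test with adjustment over the 36 pairs, 20 had an adjusted p under 0.05. The share of all tested gene pairs with an r of this size was not determined, so this count has no background beside it. The count was 21 with Spearman's rho and 18 after subtraction of the mean of each treatment group. The 9 genes lie on 9 different chromosomes. All values of a tumor share 1 library and 1 scaling; the r of a gene pair therefore contains what these add to every gene.

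The highest correlation was that of Suclg1 with Mdh2 (r = 0.66, rho = 0.60, adjusted permutation p = 0.00012), followed by Sdha with Fh1 (r = 0.64, rho = 0.62, adjusted p = 0.00012) and Idh3a with Fh1 (r = 0.62, rho = 0.55, adjusted p = 0.00012). The raw p of 1e-05 behind these is the smallest that 100000 permutations can give. Without the 2 tumors farthest from the median, these r were 0.62, 0.60 and 0.53. Succinate dehydrogenase subunits Sdha and Sdhb had an r of 0.51 (rho = 0.44, adjusted permutation p = 0.00084), which was 0.36 without the 2 farthest tumors, and Idh3a and Idh3b one of 0.43 (rho = 0.39, adjusted permutation p = 0.00447). Fh1 had the highest mean r with the other 8 genes, 0.47. Cs had the lowest, 0.20, and 0 of its 8 pairs had an adjusted p under 0.05. Without X10_95, the r of Cs ranged from -0.02 with Sdhb to 0.37 with Idh3a.

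**Figure D5:**
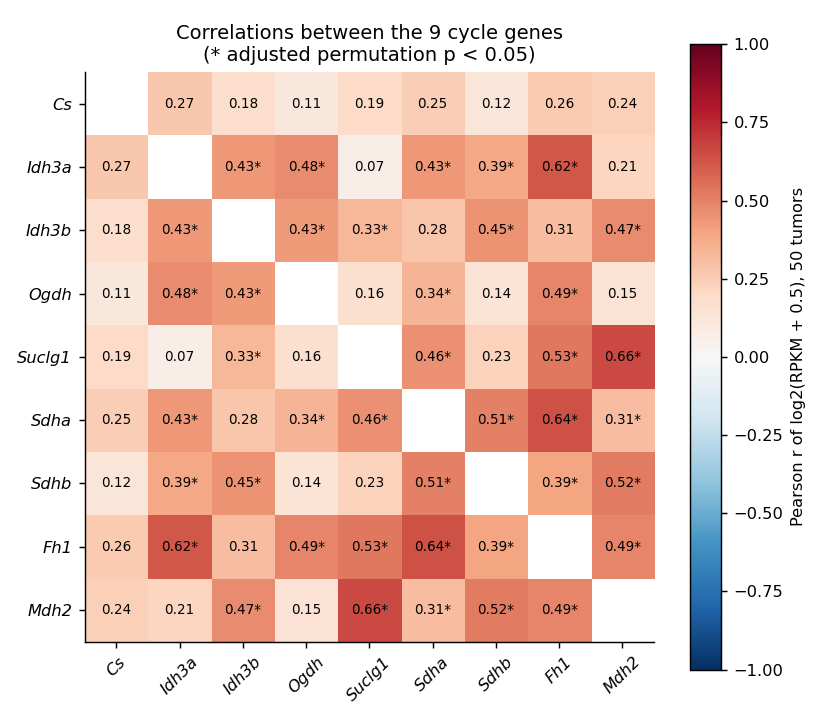
Pearson r of log2(RPKM + 0.5) over 50 tumors for each pair of the 9 genes, on a color scale from -1 to 1; an asterisk marks an adjusted permutation p under 0.05. All 36 pairs are above 0, and the row of Cs is the one without an asterisk.

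The tumors at the ends of this shared variation belonged to several groups. Untreated_197 lay on average 0.60 above the median tumor on the log2 scale and glargine_73 lay 0.55 above it, with 9 of 9 enzymes above the median in both. At the other end, IGF1_124 and IGF1_160 both had a mean of -0.28. IGF1_160 combined the lowest Cs (33.4 RPKM) and Idh3a (13.5) of all tumors with an Sdhb of 152.5 RPKM, above the group median of 108.3. The mean over the 9 enzymes was 0.06 ± 0.21 in the vehicle, -0.05 ± 0.09 in the insulin, 0.13 ± 0.25 in the glargine, 0.02 ± 0.18 in the X10 and -0.0032 ± 0.25 in the IGF1 group (SD, n = 10 each).

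Genes whose levels were most like the mean of the 9 enzymes over 50 tumors were Coq5 (r = 0.79), an enzyme of coenzyme Q synthesis, and Uqcrc2 (r = 0.75), a subunit of complex III. The remaining cycle genes followed the same mean in 8 of 8 cases, with r from 0.43 to 0.74. In contrast, 1 of 14 genes of glycolysis had an r above 0 with it (median -0.18, lowest -0.49 for Pfkl), where 57.5% of all tested genes were above 0 with a median of 0.04. For single enzymes, Sdhb was most like Sdhd (r = 0.73), a membrane anchor of its own complex, and Fh1 was like Mdh1 (r = 0.72), the cytosolic malate dehydrogenase, after Ubac1 (r = 0.73).

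To show the sequence in front of the genes of the most correlated pairs, the 250 bases before the start site are printed 5′ to 3′ on the gene's strand, from RefSeq (GRCm38.p6). They are those of Suclg1 (chr6:73248255-73248504, plus strand), Mdh2 (chr5:135778399-135778648, plus strand), Sdha (chr13:74350241-74350490, minus strand) and Fh1 (chr1:175625636-175625885, minus strand). Capitals mark matches on either strand to the motifs of SP1 (GGGCGG) and NFY (CCAAT).
Suclg1: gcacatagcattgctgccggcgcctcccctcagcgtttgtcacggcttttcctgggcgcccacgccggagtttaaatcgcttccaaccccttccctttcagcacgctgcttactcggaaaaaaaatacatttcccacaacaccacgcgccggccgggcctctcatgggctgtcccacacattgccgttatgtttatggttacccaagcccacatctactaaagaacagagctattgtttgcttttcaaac
Mdh2: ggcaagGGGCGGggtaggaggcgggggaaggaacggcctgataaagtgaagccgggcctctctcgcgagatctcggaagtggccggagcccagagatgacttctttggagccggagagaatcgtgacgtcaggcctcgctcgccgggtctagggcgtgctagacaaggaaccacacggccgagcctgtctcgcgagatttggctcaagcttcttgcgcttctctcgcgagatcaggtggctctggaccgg
Sdha: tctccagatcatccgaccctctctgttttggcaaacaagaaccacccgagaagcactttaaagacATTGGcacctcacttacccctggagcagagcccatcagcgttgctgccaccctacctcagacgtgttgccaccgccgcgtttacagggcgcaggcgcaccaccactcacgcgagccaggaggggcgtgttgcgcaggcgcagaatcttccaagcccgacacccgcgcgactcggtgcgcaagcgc
Fh1: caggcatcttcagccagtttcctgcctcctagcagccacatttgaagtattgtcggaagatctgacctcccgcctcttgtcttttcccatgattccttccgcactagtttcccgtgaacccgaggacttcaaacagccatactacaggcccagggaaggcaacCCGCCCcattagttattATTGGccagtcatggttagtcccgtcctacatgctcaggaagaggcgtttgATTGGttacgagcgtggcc

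A promoter window was found for 8 of the 9 genes, all but Idh3a, with 6 windows for Ogdh. Each window of 300 bases, 250 before and 50 after the start site, was searched on both strands for 7 motifs. NFY was found in 6 of 8 genes and SP1 in 5 of 8, where 41.1% and 38.2% of 27025 genes had them. The ETS/GABP motif CCGGAAG was in Idh3b and Sdhb (9.93% of all genes) and the NRF1 motif GCGCATG in Ogdh and Sdhb (4.41%). The ERR site AAGGTCA, the YY1 motif ATGGCG and the E-box CACGTG were found in Ogdh, at 5.38%, 10.2% and 8.09% of all genes. These matches and the NRF1 match of Ogdh lay only in windows 4 to 6 of this gene. The shares rest on 32851 windows of 27025 genes, so they are not a like background for a gene with 6 windows. Suclg1 matched none of the 7 motifs, and the matches of Mdh2 were all SP1. Sdha and Fh1 both held an NFY match. ETS/GABP and NRF1, named for factors known to act on mitochondrial genes, were absent from all 4 windows. No match says only that these letters are not in these windows.

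Several enzymes were most like genes of their own chromosome. Suclg1, on chromosome 6, was most like Bola3 (r = 0.86), Mrps35 (r = 0.85) and Jagn1 (r = 0.85), all on chromosome 6. Idh3a, on chromosome 9, was most like Sept7 (r = 0.85), also on chromosome 9, and Cs was most like Atp5b (r = 0.88), Rnf41 (r = 0.80) and Dnajc14 (r = 0.80), its neighbours on chromosome 10. Without X10_95 these 3 values were 0.69, 0.58 and 0.60. Among the 100 genes most like each enzyme, 72 for Cs, 60 for Suclg1, 58 for Idh3a and 38 for Mdh2 were on the same chromosome. This number was 24 for Sdhb, 19 for Fh1, 16 for Idh3b, 13 for Sdha and 12 for Ogdh. For all 16551 tested genes with a position, the median was 14 and the 90th percentile 59 of 100, so that Cs and Suclg1 lay above and Idh3a just below that percentile. Without X10_95 the number for Cs was 53.

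Suclg1, Idh3a and Cs also had the highest correlations with nearby genes alone, an analysis chosen after the data had been seen. The median of the 30 tested genes that start within 2 Mb of Suclg1 correlated with it at r = 0.78 (rho = 0.77, adjusted permutation p = 4.5e-05, over 9 tests), higher than for 95.3% of 15705 tested genes with at least 10 such neighbours. The value was 0.75 for Idh3a with 31 neighbours (rho = 0.80, adjusted permutation p = 4.5e-05), higher than for 92.8% of genes. Without the 2 farthest tumors these were 0.74 and 0.75. For Cs, r was 0.71 (rho = 0.47, adjusted permutation p = 0.000562) and fell to 0.31 without X10_95. For the other 6 enzymes r ran from 0.24 for Fh1 (rho = 0.20, adjusted permutation p = 0.0930) to 0.51 for Mdh2 (rho = 0.56, adjusted permutation p = 0.00048), and over all genes the median was 0.37. In Untreated_161, the tumor with the highest Suclg1 (0.87 above the median on the log2 scale), the neighbours were on median 0.53 above it. In IGF1_160, with the lowest Idh3a (-1.15), those of Idh3a were at -0.33. By contrast, glargine_73 had the highest Sdha (1.05 above the median) with neighbours at 0.05.

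The enzymes were finally set beside marker genes of proliferation, glycolysis, hypoxia and cell types, as 90 pairs of the 9 genes with 9 markers and with library size, of which 7 had an adjusted permutation p under 0.05. That number was 4 with upper quartile scaling and 3 without the 2 tumors farthest from the median. Ogdh was inversely related to Ldha (r = -0.56, rho = -0.51, adjusted permutation p = 0.0018) and to Car9 (r = -0.56, rho = -0.55, adjusted permutation p = 0.0018), a carbonic anhydrase induced by low oxygen. Without the 2 farthest tumors these r were -0.54 and -0.52. Ldha was also inversely related to Idh3a (r = -0.47, rho = -0.38, adjusted permutation p = 0.0099) and Fh1 (r = -0.47, rho = -0.41, adjusted permutation p = 0.0099), which went to -0.33 and -0.36 without those tumors. The proliferation marker Mki67 was positively related to Idh3a (r = 0.54, rho = 0.45, adjusted permutation p = 0.0018) and Ogdh (r = 0.41, rho = 0.36, adjusted permutation p = 0.0348). These were 0.34 and 0.26 without IGF1_160 and Untreated_174. Mdh2 was inversely related to the leukocyte marker Ptprc (r = -0.48, rho = -0.52, adjusted permutation p = 0.0063). The enzymes did not share these signs, although no pair of the opposite sign was called. The r with Mki67 was -0.30 for Mdh2 and -0.28 for Suclg1. With Ptprc it was 0.35 for Idh3a and 0.29 for Ogdh, and with Ldha 0.17 for Mdh2 and 0.12 for Sdhb. Relations of the size of the 7 called pairs, with the same marker and sign, were common among all tested genes for several pairs. They were found for 16.9% of the other tested genes in the case of Ogdh with Mki67, 7.58% for Idh3a with Mki67, 7.73% for Idh3a and 7.79% for Fh1 with Ldha, 2.41% for Ogdh with Ldha, 1.66% for Mdh2 with Ptprc and 0.0359% (6 genes) for Ogdh with Car9. After subtraction of the group means the r of these 7 pairs kept their sign, for example -0.58 for Ogdh with Ldha and -0.43 for Mdh2 with Ptprc. In that form the pair of Ogdh and Mki67 was no longer called (r = 0.36, adjusted permutation p = 0.109), and that of Fh1 and Car9 was (r = -0.43, adjusted permutation p = 0.0392). By rank correlation the pairs of Ogdh with Mki67 (adjusted permutation p = 0.0937) and of Idh3a with Ldha (adjusted permutation p = 0.059) were not called, whereas that of Fh1 with Car9 was (rho = -0.40, adjusted permutation p = 0.0496). With the muscle marker Ckm no enzyme was called by Pearson's r, but Fh1 (r = 0.36, adjusted permutation p = 0.114) and Sdha (r = 0.31, adjusted permutation p = 0.148) were by rank (rho = 0.41, adjusted permutation p = 0.0496, and rho = 0.40, adjusted permutation p = 0.0498). As a covariate, the muscle score changed no treatment call.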

How the data were processed

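RNA of 50 MG tumors was analysed, 10 separate tumors in each of 5 groups. The authors aligned reads to GRCm38 with TopHat2 (2.0.10) and Bowtie2, counted them per gene with HTSeq (0.6.1) and deposited RPKM values, that is counts scaled to the library and to the length of the gene; tool versions are those of the submitters' processing notes and methods. The authors tested counts with DESeq2, which was not repeated on RPKM. A mean of at least 0.5 RPKM was required (16733 of 37701 genes), and log2(RPKM + 0.5) was analysed in R 4.3.3 using limma 3.58.1, with 5 groups and an intensity trend, and p-values were adjusted by the Benjamini-Hochberg method. Fold changes are on the log2(RPKM + 0.5) scale. The test was checked on simulated data. The values of each gene rise in equal steps, from which reads (scaled by the authors to 100 M per library), library sizes and gene lengths were recovered for 98.2% of tested genes. Low values were scaled reads up to 400. At least 98.0% of them per tumor equalled a whole number of reads times the scale factor of the library, after rounding. limma voom on the recovered reads was an alternative. Correlations were tested with two-sided permutation tests (100000 resamples, numpy 2.4.6, Python 3.11.15), adjusted over 36 pairs of enzymes and 90 pairs with markers or library size. Genes of other lists were named by the smallest p-values in each direction, and the 3 most alike genes by r. Positions are from GENCODE M21. The 9 genes, the lists and the tests were chosen with earlier results of these data known. Alternatives included a pseudocount of 0.1 or of 1, no filter on low values or one at 5 RPKM, upper quartile scaling, quantile normalization, no trend, library size or muscle markers as covariates and only the compared groups. Leaving out X10_95 or glargine_73 and the use of neighbouring genes were added after the data had been seen.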

Additional observations from a re-analysis of the deposited data

Results flagged for a closer look

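In 45 sets of 10 tumors (9 enzymes in 5 groups), the highest and lowest tumor were compared with the nearest of the others by Dixon's test, which flags about 1 in 20 sets by chance, and 3 of the 45 passed its 95% critical value. Cs in X10_95 was 233.9 RPKM, with 72.6 as the next value of the X10 group. Fh1 in the same tumor was 120.5 RPKM, with 97.3 next. Sdha in glargine_73 was 807.2 RPKM, with 539.0 next.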

How the results depend on the processing

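In every alternative that was run, limma called 0 of 9 enzymes in each of the 8 comparisons and in the F test; the fit of only the compared groups was made for the 7 comparisons of single groups. The 20 significant pairs of enzymes stayed within 1.5 times that number in every alternative that was run on the correlations. The 7 significant pairs of enzymes with markers or library size became 4 with upper quartile scaling and 3 without the 2 tumors farthest from the median. The following log2 fold changes, none of them past a threshold, changed sign. In X10 and IGF1 against the others, Idh3b was 0.0049 with quantile normalization, 0.015 with upper quartile scaling, 0.0064 with library size as a covariate and 0.014 without glargine_73 (-0.010 without X10_95), and Cs was -0.029 without X10_95 (0.080 without glargine_73). In insulin against vehicle, Cs was 0.017 with library size as a covariate. In glargine against vehicle, Cs was 0.011 with quantile normalization, 0.0055 with upper quartile scaling and 0.10 with library size as a covariate. In X10 against vehicle, Idh3a was 0.013 and Fh1 0.045 with quantile normalization, Idh3a was 0.022 and Fh1 0.033 with upper quartile scaling, Sdha was 0.021 and Fh1 0.026 with library size as a covariate, and Cs was -0.070 without X10_95 (0.13 without glargine_73). In X10 against insulin, Sdha was -0.0061 with quantile normalization and -0.013 without X10_95, and Sdhb was 0.018 with upper quartile scaling. In IGF1 against insulin, Cs was -0.0019 with quantile normalization and -0.020 with library size as a covariate. The cause was not tested. No paired analysis was possible because each mouse received a single treatment, and the numbers of the labels differ between all groups. Batches could not be examined, as the labels give no run or date that was used here.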
